A study of Mus musculus with 3 samples.

Results

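Cytosolic ribosomal protein genes were measured with 3 Affymetrix arrays of 1 channel, 1 array per RNA pool of whole mouse embryos aged 8.5 dpc (days post coitum). The members were all probe sets whose only gene symbol follows the naming of small subunit proteins (Rps), large subunit proteins (Rpl) or stalk proteins (Rplp), with a number and no more than 1 of the letters a, x, y or l after it. The rule found 98 of the 45037 probe sets, which stood for 45 of the 18193 named genes. Of these 45 genes, 21 coded for small subunit proteins, 22 for large subunit proteins or their close relatives and 2 for stalk proteins. Another 110 probe sets listed a symbol of this kind beside other symbols. They were left out of the members because a signal on them cannot be given to 1 gene, and genes such as Rpl3, Rpl5, Rpl10, Rpl24, Rplp1 and Rps27a were therefore not analysed here.

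The normal group was 1 array, from a pool of 6 C57Bl/6J litter mates of both sexes. The mutant group was 2 arrays, from pools of 8 and 6 litter mates of both sexes. The mutant embryos were Dnmt3l-/+. Their dams were Dnmt3l-/-, their sires were wildtype, and the background was C57Bl/6J. Dnmt3l helps the enzymes that lay down new DNA methylation, and without it the oocyte does not set its maternal imprints. The comparison asks which transcripts differ where those marks were not set. The labels count the mutant arrays as separate replicates. With 1 normal array, the fit takes the normal group to vary as the mutant arrays do. Precision is limited throughout by there being only 3 arrays.

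The pools differed in their tissue markers. Yolk sac endoderm markers had a summed signal of 22660 in the normal pool against 125593 and 132119 in mutant pools 1 and 2. Of the 19 measured, 18 were above the normal array on both mutant arrays (36.5% of all genes were). Embryonic erythroid markers summed to 35251, 71823 and 72109 in the same order. All 13 that passed the filter on dim probe sets were above the normal array on both (36.5% of all genes were). Cardiac markers summed to 43164, 24618 and 33606, neural markers to 14716, 8315 and 11965, and somite and tailbud markers to 9079, 5397 and 6080. Trophoblast markers summed to 2267, 5579 and 4809, and endothelial markers to 5631, 6646 and 8217. Decidual markers summed to 4500, 2696 and 4777, but their median log2 ratio was -0.48 on each mutant array. Of the 10 decidual markers kept, 7 were below the normal array on both and 2 above (39.1% and 36.5% of all genes were). Prl8a2 among them read 1376, 91.2 and 111. The part of these differences in the ribosomal values was not tested. In whole-embryo RNA, fewer cells of a type and less RNA per cell cannot be told apart.

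The cytosolic ribosome is built from a small subunit, which decodes the messenger RNA, and a large subunit, which joins amino acids. Nearly every cell makes its proteins in matched amounts. Their messenger RNAs are among the most abundant in growing embryos, and many begin with a C followed by a run of pyrimidines, the terminal oligopyrimidine or TOP motif, through which mTOR signalling controls their translation. Loss of 1 copy of several of these genes causes Diamond-Blackfan anaemia in people, a failure of red cell production, and mouse mutants of Rpl38, Rps7, Rps19 and Rps20 have defects of the skeleton, pigment or blood.

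The windows below show the annotated transcript starts of some members described in the results. They let the starts of some main ribosomal genes be set beside those of the relatives Rpl39l and Rps27l. Neither relative was below the normal array on both mutant arrays, and nor was Rps27 among the main genes shown. The main genes shown were all among the 8 members with a start at a C followed by at least 4 pyrimidines. They therefore do not represent all 39 members that had a promoter. Each window covers 40 bases before and 10 after the start of the RefSeq annotation (build GRCm38.p6), written 5′ to 3′ on the gene's strand, with the first 10 transcribed bases in capitals.
Rplp2 (chr7:141447611-141447660, plus strand): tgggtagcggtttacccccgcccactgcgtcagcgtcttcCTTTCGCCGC
Rps18 (chr17:33955656-33955705, minus strand): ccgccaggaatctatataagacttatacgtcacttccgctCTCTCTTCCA
Rpl38 (chr11:114668540-114668589, plus strand): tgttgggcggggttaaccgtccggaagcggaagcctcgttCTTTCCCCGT
Rps10 (chr17:27635235-27635284, minus strand): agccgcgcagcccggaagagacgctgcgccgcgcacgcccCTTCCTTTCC
Rps6 (chr4:86857358-86857407, minus strand): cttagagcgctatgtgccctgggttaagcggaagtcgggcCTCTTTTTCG
Rps27 (chr3:90213639-90213688, minus strand): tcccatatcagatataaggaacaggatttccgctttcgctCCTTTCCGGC
Rpl39l (chr16:10170188-10170237, plus strand): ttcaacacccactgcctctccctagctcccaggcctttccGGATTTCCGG
Rps27l, first annotated start (chr9:66946046-66946095, plus strand): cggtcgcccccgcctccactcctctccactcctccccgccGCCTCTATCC
Rps27l, the other annotated start (chr9:66946373-66946422, plus strand): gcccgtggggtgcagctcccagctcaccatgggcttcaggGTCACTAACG
Of the 45 members, 39 had a promoter in the table. An annotated start at a C followed by at least 4 pyrimidines was found for 8 of the 39 genes (20.5%), against 3.01% of all 27025 genes in the table. These 8 were Rpl14, Rpl35, Rpl38, Rplp2, Rps6, Rps10, Rps18 and Rps27. An annotated start can lie some bases away from the true one, so a gene without this pattern may still have it. The letters CCGGAAG, a core bound by ETS family factors, stood on either strand within 250 bases before and 50 after the start of 19 of the 39 genes (48.7%), against 9.93% of all genes. The letters GGGCGG, bound by Sp1, were found for 53.8% of members and 38.2% of all genes, and TATAAA for 12.8% and 15.7%. Each motif was counted on its own, and matches of different motifs may overlap at their ends. A match says only that these letters stand in the window. Genes with the pyrimidine start had a median log2 ratio of mutant over normal of -0.19 (8 genes), and those without it -0.14 (29 genes that passed the filter). For CCGGAAG the medians were -0.14 with it and -0.15 without it.

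Ribosomal protein transcripts read slightly lower in the mutant pools, and no single member passed the test. A log2 ratio here is log2(signal + 31.92) on a mutant array minus that on the normal array. Each gene is represented by its brightest probe set, and a filter on dim probe sets kept 43 of the 45 genes and 93 of the 98 probe sets. Of the 43 genes, 37 were below the normal array on both mutant arrays, 4 were above it on both and 2 differed in sign. Over all 12913 genes kept, 39.1% were below the normal array on both mutant arrays and 36.5% were above it on both. The median log2 ratio of the 43 genes was -0.15, which is 90.2% of the normal level, against -0.019 over all genes.

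The size of this shift was close to the gap between the mutant arrays. The median of the 43 genes was -0.078 on mutant array 1 and -0.19 on mutant array 2. Of the 43 genes, 36 read lower on mutant array 2 than on mutant array 1, against 5849 of all 12913 genes. Over all 43 genes, mutant array 2 minus mutant array 1 had a median of -0.15, and the median size of that gap was 0.16. The mean change was larger than the gap between the mutant arrays for 25 of the 43 genes (58.1%), against 56.8% of all genes. Limma called 0 of the 93 member probe sets lower and 0 higher at an adjusted p of 0.05, where it called 0.0296% of all kept probe sets lower and 0.548% higher. At an unadjusted p under 0.05, limma had 6 member probe sets lower (6.86% of all kept) and 1 higher (6.7% of all kept). The lowest adjusted p of any member probe set by limma was 0.179. For the 33 genes whose brightest probe set had a mean signal of 10000 or more, the median standard error was 0.13, so a change of the size of the median could not be told from no change for a single gene.

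**Figure D1:**
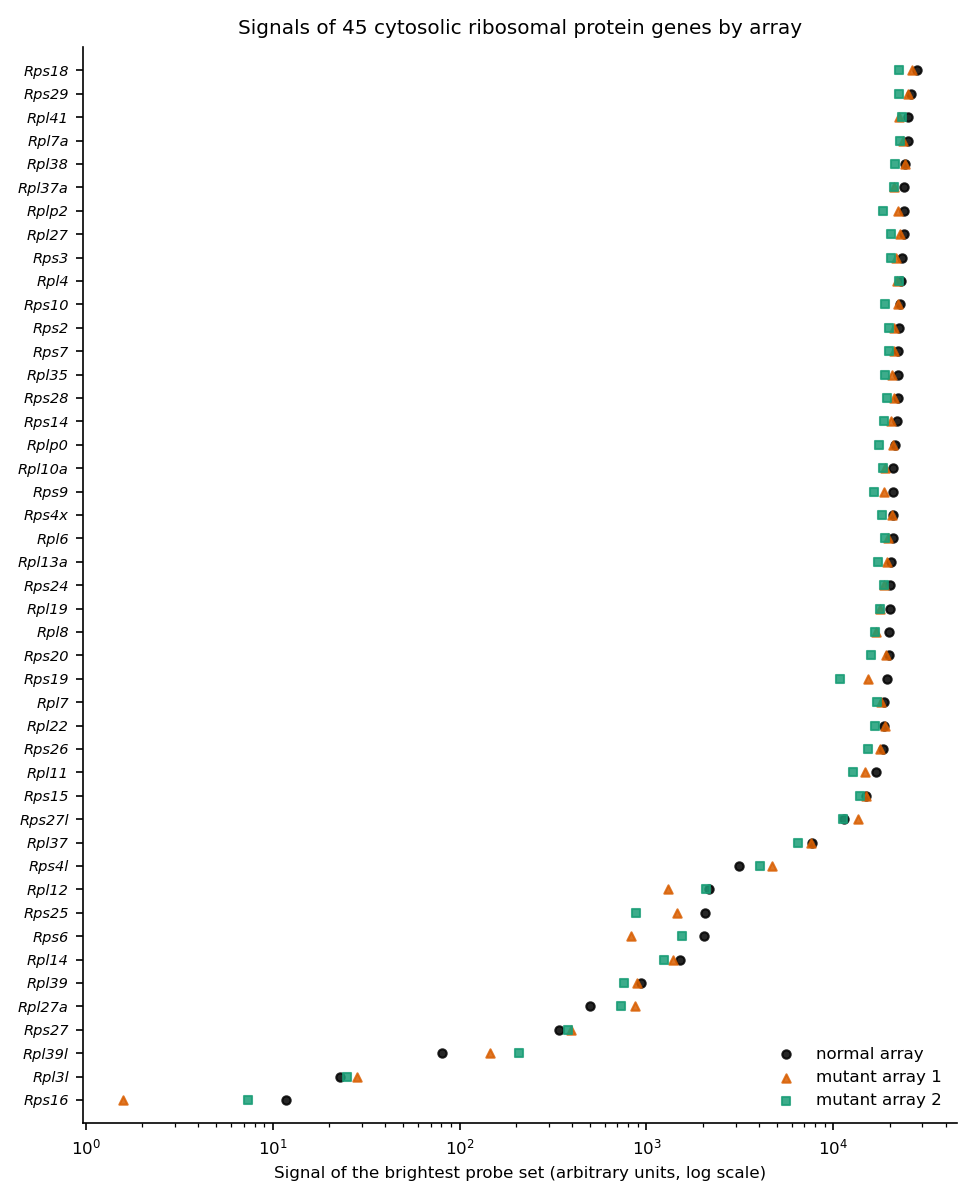
Signal of the brightest probe set of each of the 45 genes (horizontal axis, arbitrary units, log scale) on the normal array (circles), mutant array 1 (triangles) and mutant array 2 (squares), with 1 gene per row in order of the normal signal. For 33 genes the points crowd between 10914 and the highest signal of 28155, with the mutant points mostly just left of the normal point, while Rps16 and Rpl3l lie at the dim end.

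The size of the shift and the counts depended on how the arrays were scaled. With each array centred on its median, 12 of the 43 genes were lower on both mutant arrays and 5 higher, and with quantile normalization 19 were lower and 9 higher. With cyclic loess the counts were 30 and 6. The median stayed below 0 with all 3, at -0.075, -0.028 and -0.069, while the median over all genes moved to 0.056, 0.00018 and 0.017. The difference between the ribosomal median and that of all genes was -0.13 as deposited, -0.13 with median centring, -0.028 with quantile normalization and -0.086 with cyclic loess.

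**Figure D2:**
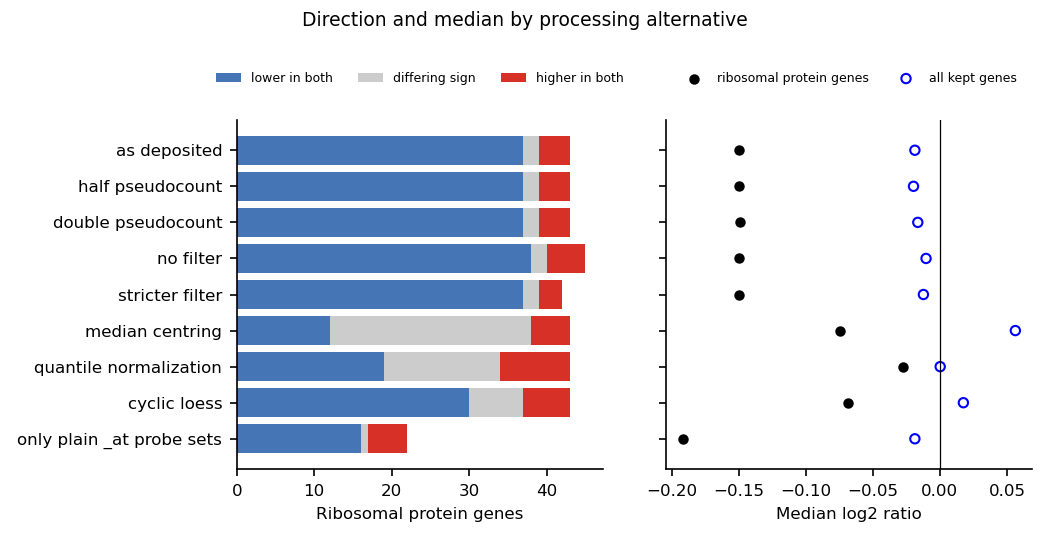
Left, the number of ribosomal protein genes lower on both mutant arrays (blue), higher on both (red) or differing in sign (grey) under each processing alternative. Right, the median log2 ratio of these genes (filled) and of all kept genes (open). The count lower on both falls from 37 as deposited to 12 with median centring, and the ribosomal median lies left of the median of all genes in every row, with the smallest gap under quantile normalization.

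Most of these probe sets lay near the top of the signal range. Among the 100 brightest probe sets of the arrays, 27 were members and another 37 were probe sets that list a ribosomal symbol beside others. Of the member probe sets with a mean signal of 10000 or more, 56 of 63 were below the normal array on both mutant arrays (42.5% of all kept probe sets were) and 1 was above it on both (32.2%), with a median log2 ratio of -0.15. The 330 other probe sets as bright, which carry no ribosomal symbol of this kind, were below it on both arrays in 190 cases (57.6%), with a median of -0.10. Of these 330, 234 read lower on mutant array 2 than on mutant array 1, and 58 of the 63 member probe sets did. The rule used none of the 103 kept probe sets that list a ribosomal symbol beside others. At any signal, 79 of these 103 were below the normal array on both mutant arrays and 1 was above it. Their median was -0.16 (-0.090 on mutant array 1 and -0.21 on mutant array 2). For the 76 of them with a mean signal of 10000 or more, the counts were 61 and 0, with a median of -0.13. The same arrays entered each of these counts, and whether signals this high were compressed was not tested. The level of 10000 was chosen after the values were seen, and the mean signal set against it includes the mutant arrays.

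**Figure D3:**
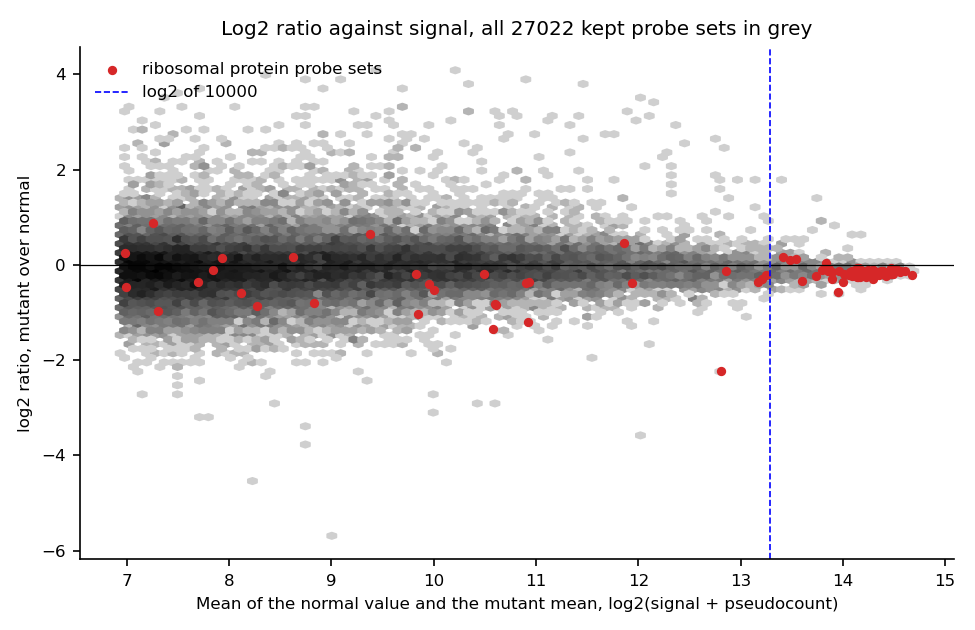
Log2 ratio of mutant over normal (vertical axis) against mean log2 signal (horizontal axis) for all 27022 kept probe sets (grey, darker where more probe sets fall) and the 93 ribosomal protein probe sets (red). The red points cluster right of the dashed line at 10000 just below a ratio of 0, with a median of -0.15, while the 30 dimmer ones scatter from -2.22 to 0.87.

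The 20 small subunit genes that passed the filter had a median log2 ratio of -0.14, with 17 below the normal array on both mutant arrays (39.1% of all genes). Rps19, whose loss in people is the best known cause of Diamond-Blackfan anaemia, read 19286 in the normal pool against 15419 and 10914 in mutant pools 1 and 2. Both mutant signals were below the normal one, and mutant array 2 lay farther from mutant array 1 than mutant array 1 did from the normal array. The log2 ratio was -0.57 (SE 0.22, 95% interval -1.13 to -0.010, limma adjusted p = 0.364), the lowest among the genes with a mean signal of 10000 or more. Rps19 was measured by 1 probe set.

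By the brightest probe set of each gene, Rps25 and Rps6 had the lowest log2 ratios of the 43 genes, both on probe sets of modest signal. Rps25, a protein of the small subunit head that some viral and cellular messages need to start translation, read 2063 in the normal pool against 1454 and 880 in mutant pools 1 and 2. That gave a log2 ratio of -0.85 (SE 0.33, limma adjusted p = 0.365), with -0.50 on mutant array 1 and -1.20 on mutant array 2. Rps6, the target of the S6 kinases downstream of mTOR, read 2040 in the normal pool against 826 and 1551 in mutant pools 1 and 2. Its log2 ratio was -0.83 (SE 0.39, limma adjusted p = 0.432), with the larger fall on mutant array 1 (-1.27) and the smaller on mutant array 2 (-0.39). For both genes the mutant arrays lay below the normal array. They also differed from each other, by -0.70 (mutant array 2 minus mutant array 1) for Rps25 and 0.88 for Rps6.

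The other small subunit genes with signals of 10000 or more lay closer together. Rps18 read 28155 in the normal pool against 26257 and 22529 in mutant pools 1 and 2, and Rps29 read 25951, 25220 and 22492. Both were lower on both mutant arrays, with log2 ratios of -0.21 (SE 0.14) and -0.12 (SE 0.13). Rps24 read 20082, 18635 and 18582, so that the mutant arrays were nearly equal and 92.7% of normal on average. Rps7 (-0.12), Rps10 (-0.14), Rps20 (-0.19), Rps26 (-0.15) and Rps28 (-0.13) were also below the normal array on both mutant arrays, and none of these genes passed the test. The X-linked Rps4x read 20762 in the normal pool against 20537 and 18174 in mutant pools 1 and 2, a log2 ratio of -0.10 (SE 0.14). Rps16 was measured by 1 probe set that read 11.8, 1.58 and 7.40 and did not pass the filter.

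Genes in which loss of 1 copy causes Diamond-Blackfan anaemia were set apart because erythroid markers were higher in the same pools, whose part in these values was not tested. The 10 that were measured were all below the normal array on both mutant arrays (39.1% of all genes), as were most members. Their median log2 ratio was -0.15, close to that of all 43 genes. All 10 were lower on mutant array 2 than on mutant array 1, as were 36 of the 43 genes and 5849 of all 12913. Their log2 ratios ran from -0.57 for Rps19 to -0.11 for Rps24.

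For the 21 large subunit genes that passed it the median was -0.15, with 18 below the normal array on both mutant arrays. Rpl11, which forms the 5S particle with Rpl5 and can bind Mdm2 to stabilise p53, read 16905 in the normal pool against 14848 and 12679 in mutant pools 1 and 2. Its log2 ratio was -0.30 (SE 0.15, 95% interval -0.69 to 0.085, limma adjusted p = 0.476). Rpl8, which lies near the site of peptide bond formation, read 19978 in the normal pool against 16961 and 16639 in mutant pools 1 and 2. The mutant arrays were nearly equal here, at a mean of 16800 ± 228 (SD, n = 2), and the log2 ratio was -0.25 (SE 0.12, limma adjusted p = 0.462). Rpl38, mutated in the Tail-short mouse and needed for the translation of several Hox messages, read 24234 on the normal array, 24052 on mutant array 1 and 21358 on mutant array 2. Only mutant array 2 stood apart, and the log2 ratio was -0.096 (SE 0.13, 95% interval -0.43 to 0.24).

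Rpl27 (-0.15) and Rpl35 (-0.18) were lower on both mutant arrays. Rpl41, which codes for a very short protein, read 25214 in the normal pool against 22387 and 23450 in mutant pools 1 and 2, a log2 ratio of -0.14 (SE 0.12). The X-linked Rpl39, whose protein lines the exit tunnel of the nascent chain, was measured by a probe set of 939 in the normal pool against 887 and 758 in mutant pools 1 and 2, a log2 ratio of -0.19 (SE 0.24). Rpl12, a protein at the base of the stalk, read 2158, 1297 and 2081, so the fall was on mutant array 1 only (-0.72, against -0.051 on mutant array 2). Rpl22 differed in sign between the mutant arrays, with 0.016 and -0.16.

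The stalk proteins, which recruit elongation factors to the ribosome, were represented by Rplp0 and Rplp2. Rplp0 read 21467 in the normal pool against 20838 and 17512 in mutant pools 1 and 2, and Rplp2 read 23849, 22096 and 18456. Both were lower on both mutant arrays, with mutant array 2 the lowest, at log2 ratios of -0.17 (SE 0.15) and -0.24 (SE 0.15). Neither passed the test.

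**Figure D4:**
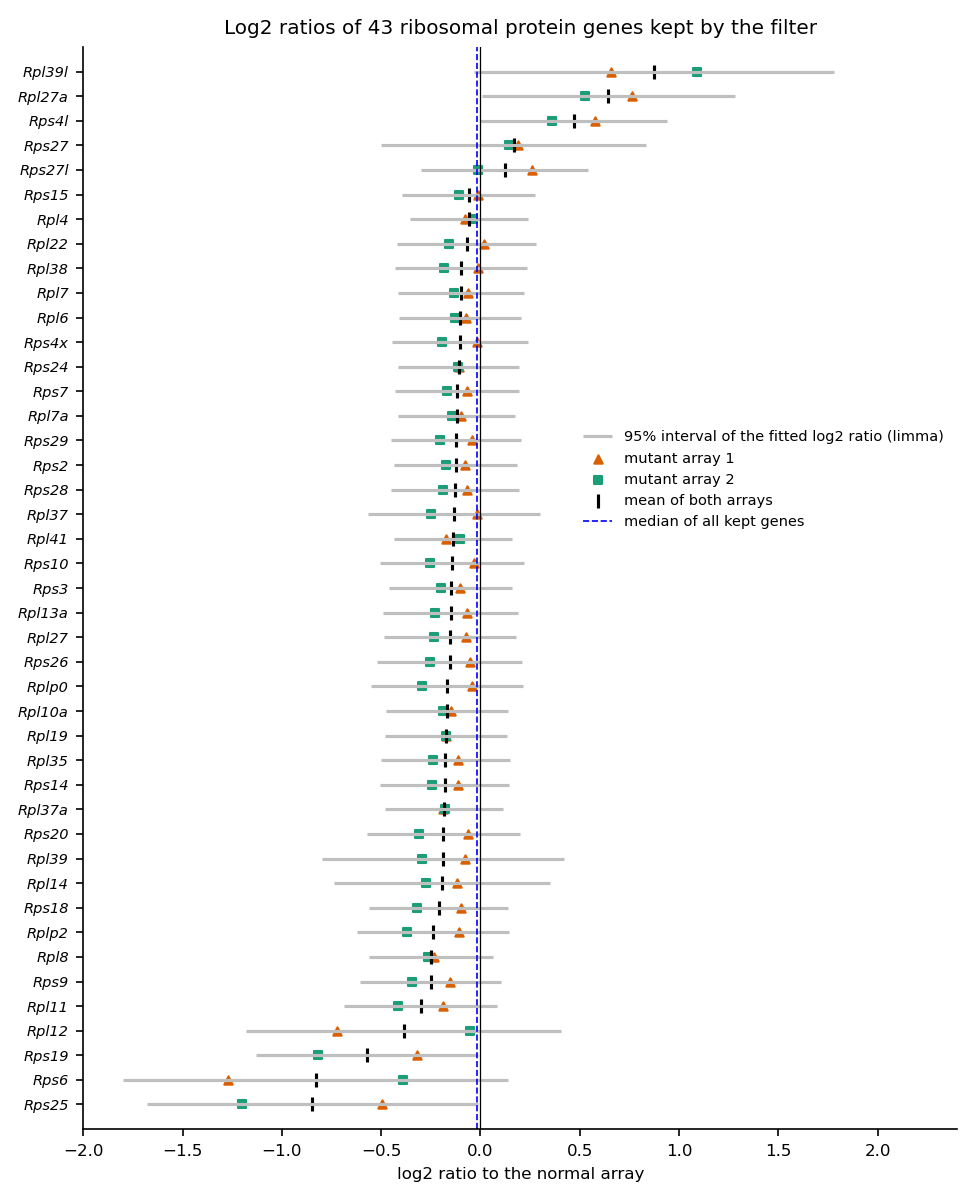
Log2 ratio to the normal array of the 43 genes that passed the filter, on mutant array 1 (triangles), mutant array 2 (squares) and as their mean (black ticks), with the 95% interval of the fitted ratio (grey bars), in order of the mean. Most genes lie just below 0 with intervals that cross it, Rps25, Rps6 and Rps19 lie lowest, and Rpl39l, Rpl27a and Rps4l lie highest.

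The 4 genes above the normal array on both mutant arrays were Rpl39l, Rps4l, Rpl27a and Rps27 (36.5% of all genes were), of which Rpl39l and Rps4l are relatives of a main ribosomal gene. Rpl39l, a relative of Rpl39 known from testis, read 81.0 in the normal pool against 146 and 209 in mutant pools 1 and 2. Both mutant signals were above the normal one, and the log2 ratio was 0.87 (SE 0.36, 95% interval -0.033 to 1.78, limma adjusted p = 0.381). This probe set was dim, at the 46.9th percentile of mean log2 signal, and a stricter filter at the 60th percentile left it out. Its ratio was 0.98 with a smaller pseudocount (15.96) and 0.72 with a larger one (63.84). Rps4l, an autosomal relative of Rps4x, read 3134 in the normal pool against 4696 and 4029 in mutant pools 1 and 2, a log2 ratio of 0.47 (SE 0.19, 95% interval -0.0038 to 0.94, limma adjusted p = 0.371). Rps27l, a relative of Rps27 that p53 can induce, read 11378 on the normal array, 13615 on mutant array 1 and 11263 on mutant array 2. Only mutant array 1 was above the normal array, and the log2 ratio was 0.12 (SE 0.17). Rpl3l, the muscle relative of Rpl3, read 22.8, 28.3 and 25.1 and did not pass the filter. None of the 3 relatives among the members that passed the filter was below the normal array on both mutant arrays, against 37 of the other 40 genes. The difference between these sets was not tested. It was not separated from signal level. Of the 10 genes with a mean signal under 10000, 4 were above the normal array on both, including Rpl39l and Rps4l. Of the 33 brighter genes, which include Rps27l, 0 were. Rpl7l1, a relative named outside the rule, read 3878 in the normal pool against 3126 and 3027 in mutant pools 1 and 2. Its log2 ratio was -0.33 (SE 0.18).

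Rpl27a and Rps27 were each measured on 1 kept probe set of low signal. Rpl27a read 501 in the normal pool against 872 and 735 in mutant pools 1 and 2, a log2 ratio of 0.64 (SE 0.25, 95% interval 0.0067 to 1.28, limma adjusted p = 0.366). Rps27 read 341 in the normal pool against 394 and 381 in mutant pools 1 and 2, a log2 ratio of 0.17 (SE 0.27). Other probe sets that list a symbol of this kind beside others were not assigned to either gene. Of the 43 genes, none was at least 2-fold higher or lower on both mutant arrays (3.24% and 0.635% of all genes were). Of the 93 member probe sets, 1 was at least 2-fold lower on both and 0 were higher (1.9% and 2.57% of all kept).

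Probe sets of the same gene did not always give the same value. Of the 19 genes with several kept probe sets, 16 had the same sign on all of them, and Rpl22, Rpl35 and Rps3 did not. Probe sets with a mean signal of 10000 or more lay in a narrow band. The 30 dimmer ones had a median log2 ratio of -0.37 and a wider spread. The mean signal includes the mutant arrays, so a large fall can itself place a probe set among the dimmer ones. The contrast in spread is therefore partly set by the split. The largest fall of any member probe set was on a dimmer probe set of Rps9, a protein needed for decoding accuracy. It read 15460 in the normal pool against 1475 and 7269 in mutant pools 1 and 2, a log2 ratio of -2.22 (SE 0.85, limma adjusted p = 0.357), where the mutant arrays differed several-fold from each other. The brightest probe set of Rps9 read 20907, 18782 and 16428, a log2 ratio of -0.25 (SE 0.14). All 3 probe sets of Rps9 were negative, with the sizes far apart.

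Rpl41, Rpl37a and Rps20 had the same kind of disagreement. A dimmer probe set of Rpl41 read 2920 in the normal pool against 1042 and 1495 in mutant pools 1 and 2, a log2 ratio of -1.21 (SE 0.28), and gave the lowest adjusted p of the members by limma (0.179). Another of Rpl41 read 1289, 501 and 748, and the brightest gave only -0.14. A dimmer probe set of Rpl37a read 2406, 1734 and 484, with most of the fall on mutant array 2, against -0.18 for its brightest. A dimmer probe set of Rps20 read 385, 189 and 209, a log2 ratio of -0.85 (SE 0.29), against -0.19 for its brightest. Which transcripts the dimmer probe sets measure was not tested. Suffixes that mark probes shared between transcripts were carried by 69 of the 98 member probe sets, and ribosomal protein genes have many near-identical processed copies, so signals of a gene and its copies cannot be told apart.

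**Figure D5:**
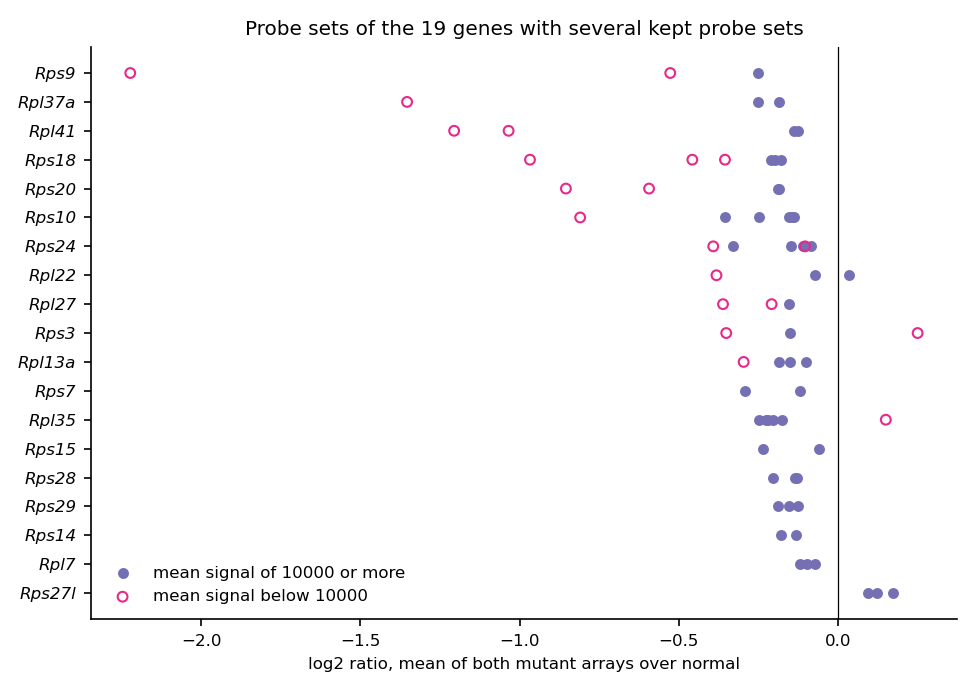
Log2 ratio of every kept probe set of the 19 genes with several, filled where the mean signal is 10000 or more and open where it is lower, with 1 gene per row. The filled points fall between -0.36 and 0.17, while open points reach -2.22 for Rps9, -1.35 for Rpl37a and -1.21 for Rpl41. The mean signal includes the mutant arrays, so a large fall can itself make a point open.

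Other genes of ribosome production and translation were taken from lists, and no gene of these lists passed the test in either direction (limma, adjusted p of 0.05, which 0.031% of all genes passed as lower and 0.728% as higher). Of all genes, 39.1% were below the normal array on both mutant arrays and 36.5% above it on both. Of 8 ribosomal genes whose names fall outside the rule, 5 were measured, with a median log2 ratio of -0.15. Of these 5, 4 were below the normal array on both mutant arrays. Among them Rpsa, a small subunit protein, read 23554, 19870 and 20601, a log2 ratio of -0.22 (SE 0.12). Ribosome biogenesis factors had a median of -0.083 over 30 genes (0.054 on mutant array 1 and -0.18 on mutant array 2), with 12 below and 4 above the normal array on both. Fbl, the methyltransferase of ribosomal RNA, gave -0.28 (SE 0.15), and Nop58, a protein of the same particles, gave -0.30 (SE 0.18). Ltv1, also on this list, was above the normal array on both mutant arrays and gave 0.39 (SE 0.20). RNA polymerase I and III genes had a median of -0.19 over 19 genes, with 14 below the normal array on both mutant arrays and 5 lower at an unadjusted p under 0.05 by limma (4.24% of all genes were). They included Maf1, a repressor of RNA polymerase III (-0.76, SE 0.22, limma adjusted p = 0.241), Gtf3a, which starts transcription of 5S RNA (-0.62, SE 0.21), and Polr1b, a subunit of RNA polymerase I (-0.74, SE 0.28).

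The median of elongation factors and other TOP messages was -0.062 over 19 genes, with 12 below and 5 above the normal array on both mutant arrays. Eef1b2, an exchange factor of elongation, gave -0.31 (SE 0.16), and Vim, an intermediate filament gene with a TOP message on this list, gave 1.00 (SE 0.22, limma adjusted p = 0.172). Initiation factors had a median of -0.10 over 17 genes, with Eif1ax at -0.35 (SE 0.16) and Eif3m at 0.32 (SE 0.18). Genes of mTOR and Myc control had a median of -0.021 over 15 genes, with Max at -0.68 (SE 0.24), Tsc2 at 0.43 (SE 0.24) and Myc at 0.44 (SE 0.25). Targets of p53, which surplus ribosomal proteins can stabilise, had a median of 0.063 over 15 genes, with ratios from -0.36 to 0.73. On both mutant arrays, 5 were below and 6 above the normal array (39.1% and 36.5% of all genes were), and 4 differed in sign. Among those above it on both, Trp53inp1 gave 0.73 (SE 0.29), Btg2 0.50 (SE 0.25) and Ccng1 0.32 (SE 0.21), and none passed.

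Other large complexes gave medians nearer to that of all genes. The median of 76 mitochondrial ribosomal protein genes was -0.099, with 0.013 on mutant array 1 and -0.17 on mutant array 2, and 32 were below the normal array on both. Proteasome subunits had a median of -0.064 over 35 genes, with 15 below the normal array on both. Respiratory chain subunits had a median of -0.015 over 91 genes, with 29 below it on both. Of all genes, 39.1% were below it on both. Each of these lists read lower on mutant array 2 than on mutant array 1 by its median, as the cytosolic ribosomal proteins did. These medians share the same 3 arrays, and no test was made between the lists.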

How the data were processed

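The deposited table gives a linear intensity for each probe set on each array. GCOS and MAS5 are the tools in the submitters' processing notes, with no version given. Each array's mean was 500.0 after 2% was trimmed at each end, so all arrays had been scaled alike, and the median signals were 143.6, 130.0 and 139.6. For the Actb control, 3′ signal over 5′ signal was 1.63, 1.24 and 1.43 on the normal array and mutant arrays 1 and 2, and for Gapdh it was 0.93, 0.86 and 1.10. Gene symbols came from the platform annotation, 64 control probe sets were dropped, and the gene identifiers of all 45 members matched the RefSeq table (GRCm38.p6). Promoter sequences are RefSeq's of that build.

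A pseudocount of 31.92 was added, which is the median of the arrays' 20th percentiles. Probe sets at or above the 40th percentile of mean log2 signal were kept (27022). Limma (version 3.58.1, R 4.3.3) was fitted with lmFit and eBayes with a trend on signal, and its two-sided p-values were adjusted by Benjamini and Hochberg's method over all kept probe sets. It had 1 residual and 4.52 prior degrees of freedom. The script was checked on simulated data. Alternatives changed the pseudocount, filter, scaling, trend, choice of probe set and arrays. Named members were those with up to 5 highest and 5 lowest ratios, the 5 largest gaps between mutant arrays, the 3 brightest and 3 dimmest, and those of set roles. The highest and lowest were ranked by the ratio of the less changed mutant array, among genes with the same sign on both. Further ones were named as examples after their values were seen. Members and lists were chosen with earlier results of these data known.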

Additional observations from a re-analysis of the deposited data

How the results depend on the processing

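No member probe set was called in either direction under any of the alternatives that allow a test (other pseudocounts, filters, scalings, no trend, or only probe sets without a shared suffix). The count of genes lower on both mutant arrays went from 37 of 43 to 12 with median centring, 19 with quantile normalization and 16 of 22 with only probe sets without a shared suffix, where fewer genes were measured. Quantile normalization gave 9 genes higher on both, against 4. Among genes at or above 10000, an alternative added after the data were seen, 0 of 33 were higher on both. The median log2 ratio of -0.15 moved to -0.028 with quantile normalization and -0.069 with cyclic loess. The cause was not tested. Leaving out 1 mutant array gave medians from -0.19 to -0.078, from 37 to 39 genes lower and from 4 to 6 higher. Of 27 named members tested, 3 changed sign with quantile normalization, Rpl38 (0.031), Rps24 (0.024) and Rps4x (0.048), and Rpl35 did with only probe sets without a shared suffix (0.15). With the mean of a gene's kept probe sets, 6 of the 27 moved to lower values, Rpl41 from -0.14 to -0.63, Rps20 from -0.19 to -0.45, Rps18 from -0.21 to -0.39, Rps10 from -0.14 to -0.31, Rps7 from -0.12 to -0.21 and Rps24 from -0.11 to -0.19. Over all kept probe sets, median centring raised the calls from 8 lower and 148 higher to 24 and 263, and both counts were 0 without the filter and without the trend. No paired analysis was possible because the normal group holds 1 array and carries no replicate number. The precision is limited by the 3 arrays.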
